A study of Mus musculus with 6 samples.

Results

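The genes described here are the cell's machinery for sensing extracellular nucleotides and for degrading them at the cell surface: 5 nucleotide receptors of the P2Y family (P2ry12, P2ry13, P2ry6, P2ry2 and P2ry14), the ATP-gated channels P2rx4 and P2rx7, the ectonucleotidase Entpd1 and the adenosine receptors Adora2a and Adora2b. They were chosen by name, and a row of the array was used where its annotation named exactly 1 of these genes. Of the 10 genes, 8 had such a row, 1 each, out of 22180 genes with a row of their own. Adora2a and Adora2b had none and were not analysed here. BV-2 cells are mouse microglia immortalised with raf and myc oncogenes by retroviral transfer, and the labels call them macrophage-like in function. Expression was measured on 3 arrays of control cells, described in the labels as resting, and on 3 arrays of cells given lipopolysaccharide (LPS) of Escherichia coli O111:B4 at 1 µg/mL for 24 h. LPS, a bacterial cell wall component, acts through Toll-like receptor 4, and all cells were kept in medium with reduced serum. What the control cells received in place of LPS, and when they were collected, is not given in the sources used here. Nothing in the labels says that replicates were separate cultures, so each p-value reflects only how these arrays varied, in part perhaps for technical reasons.

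Damaged or active cells release ATP and other nucleotides, and microglia read them through purinergic receptors. P2X receptors are channels that open on binding ATP, whereas P2Y receptors couple to G proteins and answer to ADP, UTP, UDP or UDP-sugars. Entpd1 (CD39) removes phosphates from ATP and ADP, other ectoenzymes turn the resulting AMP into adenosine, and adenosine acts on its own receptors. In the brain, resting microglia are known for P2ry12, which steers their processes towards injury and is typically lost on activation, while P2ry6 is known for promoting phagocytosis and P2rx7 for triggering release of interleukin 1 beta.

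Values are log2 expression, so a difference of 1 is a doubling, and levels are compared only within a gene. Background was judged from 1443 rows of chemosensory receptor genes (olfactory, vomeronasal and taste), whose means had a 95th percentile of 3.08, and a value at or under this is called within background. Upper quartiles of the 6 arrays ran from 4.85 to 5.27. Control replicate 2 stood apart from the other controls. Its median difference from their mean was -0.39 in rows at a level of 5 to 7, -0.62 at 7 to 9 and -0.53 at 9 to 13. No such value was computed for rows under 5. LPS replicate 3 stood apart from the other LPS arrays for several of the genes described here. Over all rows above background, the median gap between LPS replicate 3 and the mean of the other LPS arrays was 0.14. Results are given on all 6 arrays and without these 2 arrays. Because LPS replicate 3 was picked from the values of these same genes, the intervals without it may be too narrow and serve as description only. All 11 measured microglia and macrophage markers had a mean above background, among them Csf1r (9.18), Itgam (8.82), Aif1 (3.97) and Cx3cr1 (3.70). Of 9 homeostatic microglia markers 6 lay within background, the microglia-defining genes Tmem119 (2.68), Sall1 (1.91) and Siglech (2.23) among them, and 3 did not (Mertk, Tgfbr1 and Fcrls). Of 22 measured markers of astrocytes, oligodendrocytes, neurons, endothelium and lymphocytes, 20 lay within background, and the exceptions were Flt1 at 7.54 and Rbfox3 at 3.46.

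Of the measured genes, 3 had control and LPS values that did not overlap, namely P2ry12 and P2ry13, lower after LPS, and P2ry2, higher after LPS. P2ry12 and P2ry13 lie next to each other on chromosome 3, and P2ry2 lies beside P2ry6 on chromosome 7. Their promoter-proximal sequences are shown because these are the genes whose groups were apart. Each is the 250 bases before an annotated transcription start, read 5′ to 3′ on the gene's strand (RefSeq, GRCm38.p6), with motif matches in capitals. The windows are chr3:59262986-59263235 (minus strand) for P2ry12, chr3:59210883-59211132 (minus strand) for P2ry13 and chr7:101012054-101012303 (minus strand) for P2ry2, whose outermost start was taken.
P2ry12, upstream window: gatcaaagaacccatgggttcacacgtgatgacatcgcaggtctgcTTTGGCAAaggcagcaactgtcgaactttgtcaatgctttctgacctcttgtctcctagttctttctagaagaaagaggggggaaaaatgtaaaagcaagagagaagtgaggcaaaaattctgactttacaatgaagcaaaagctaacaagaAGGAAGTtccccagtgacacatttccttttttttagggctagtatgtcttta
P2ry13, upstream window: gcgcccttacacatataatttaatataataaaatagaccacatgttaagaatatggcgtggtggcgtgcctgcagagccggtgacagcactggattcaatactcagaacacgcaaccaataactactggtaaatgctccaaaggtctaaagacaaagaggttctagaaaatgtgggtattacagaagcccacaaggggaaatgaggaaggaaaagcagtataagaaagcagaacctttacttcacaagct
P2ry2, upstream window: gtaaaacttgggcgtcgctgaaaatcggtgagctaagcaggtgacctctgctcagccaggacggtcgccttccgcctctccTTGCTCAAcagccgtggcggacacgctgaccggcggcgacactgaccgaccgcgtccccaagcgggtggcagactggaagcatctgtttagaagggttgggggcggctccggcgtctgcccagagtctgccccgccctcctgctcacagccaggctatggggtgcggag
Motifs were searched on both strands as the ETS core AGGAAGT (the family of the macrophage factor PU.1), the NF-kappaB site GGGNNTTTC, the interferon-response element GAAANNGAA, the cyclic AMP response element TGACGTCA, the AP-1 site TGANTCA and the C/EBP site TTGCNNAA. The P2ry12 window held an ETS core match 52 to 46 bases before the start and a C/EBP match 204 to 197 bases before it. The P2ry2 window held a C/EBP match, and the P2ry13 window held no match to any of these letters. Of 32851 such windows of all genes, 7.69% held the ETS core, 9.56% the C/EBP site, 6.75% the AP-1 site, 7.13% the interferon-response element, 3.72% the NF-kappaB site and 1.55% the cyclic AMP element. GC content was 41.6% in the P2ry12 and P2ry13 windows and 65.2% in that of P2ry2, against a median of 52.4% over all windows.

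The ADP receptor P2ry12, which directs microglial processes towards injured cells, was measured at 4.50, 3.51 and 4.10 in control replicates 1 to 3 and at 3.14, 3.17 and 3.49 in LPS replicates 1 to 3. Every LPS value lay below every control value, though control replicate 2 and LPS replicate 3 differed by only a few hundredths. The mean went from 4.04 ± 0.50 to 3.27 ± 0.19 (SD, n = 3), a difference of -0.77 (SE 0.27, 95% interval -1.40 to -0.13), or 0.587 times the control level. The limma p was 0.024, and the p adjusted over all 41345 rows was 0.65, so the difference did not pass the threshold of 0.05. LPS replicates 1 and 2 lay close to the background guide of 3.08.

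P2ry13, a second ADP receptor that couples like P2ry12 to inhibitory G proteins, was measured at 3.68, 3.56 and 3.76 in the controls and at 3.15, 2.93 and 3.42 after LPS. The groups were again apart. LPS replicate 2 was within background and LPS replicate 1 lay close to it, so the size of the difference rests in part on background signal. The difference was -0.50 (SE 0.17, 95% interval -0.90 to -0.09), or 0.708 times the control level. The limma p was 0.023 and the adjusted p was 0.64. The third ADP receptor, P2ry1, which couples to phospholipase C, is named here with its values already known. It was at 5.38, 6.11 and 5.39 in the controls and at 3.90, 3.90 and 6.02 after LPS. Its first 2 LPS replicates lay well below every control, while LPS replicate 3 lay among the controls. Over all arrays its difference was -1.01 (SE 0.59, 95% interval -2.41 to 0.39, limma adjusted p = 0.93).

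**Figure D1:**
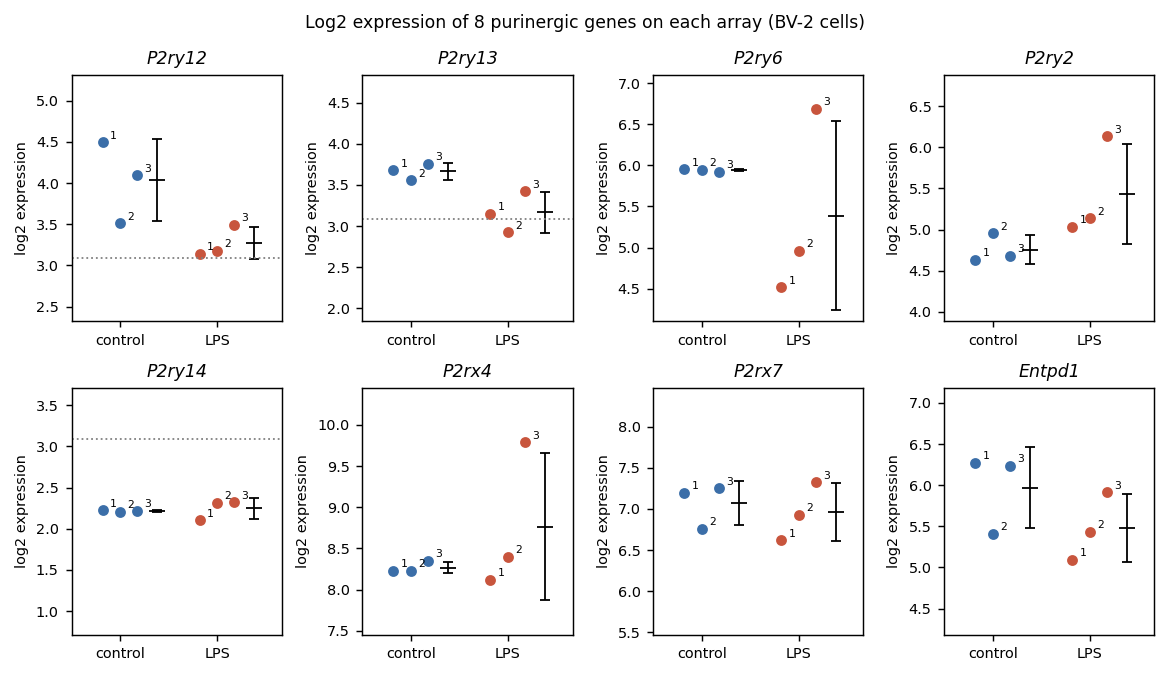
Log2 expression of the 8 measured genes on each of the 6 arrays, 1 panel per gene, each panel spanning 3 log2 units. Blue points are control and red points LPS replicates, numbered 1 to 3, black bars are means ± SD (n = 3), and the dotted line, where in range, is the background guide of 3.08. P2ry12 and P2ry13 are lower and P2ry2 higher on every LPS array, and LPS replicate 3 is the highest LPS point in all 8 panels.

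The UDP receptor P2ry6, known for promoting phagocytosis by microglia, had the widest spread after LPS of the 8 genes. Controls were at 5.95, 5.94 and 5.92 (SD 0.01), and LPS replicates were at 4.52, 4.96 and 6.69 (SD 1.15). LPS replicates 1 and 2 lay below the controls and LPS replicate 3 lay above them, so the groups overlapped. The difference over all arrays was -0.55 (SE 0.52, 95% interval -1.80 to 0.70, limma adjusted p = 1.00). Without control replicate 2 and LPS replicate 3 it was -1.20 (SE 0.21, 95% interval -1.72 to -0.68, limma adjusted p = 0.11), or 0.436 times the control level.

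P2ry2, the ATP and UTP receptor, was measured at 4.64, 4.96 and 4.68 in the controls and at 5.03, 5.14 and 6.13 after LPS. All LPS values lay above all control values, with LPS replicate 3 furthest away. Means were 4.76 ± 0.17 and 5.43 ± 0.61 (SD, n = 3), a difference of 0.68 (SE 0.31, 95% interval -0.05 to 1.40), or 1.60 times the control level. The limma p was 0.064 and the adjusted p was 0.83. With 1 array left out the difference ran from 0.33 (without LPS replicate 3) to 0.88. Fchsd2, the gene on the other side of P2ry2, was also higher on every LPS array, at 5.57 ± 0.20 in the controls and 6.37 ± 0.18 after LPS (SD, n = 3), a difference of 0.80 (SE 0.17, limma adjusted p = 0.29). P2ry6, on the opposite side, had a mean difference of the other sign. The UDP-glucose receptor P2ry14 lay within background on all arrays, between 2.10 and 2.32, with a difference of 0.03 (95% interval -0.28 to 0.35).

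The channel P2rx4, which microglia are known to raise after nerve injury, was at 8.23, 8.23 and 8.35 in the controls and at 8.11, 8.40 and 9.79 after LPS. LPS replicates 1 and 2 lay on either side of the controls, and LPS replicate 3 lay far above them. The difference was 0.50 (SE 0.42, 95% interval -0.50 to 1.49, limma adjusted p = 0.99), and without control replicate 2 and LPS replicate 3 it was -0.03 (95% interval -0.50 to 0.43). P2rx7, the channel that sets off inflammasome activation at high ATP, was at 7.20, 6.76 and 7.25 in the controls and at 6.62, 6.93 and 7.32 after LPS. Its groups overlapped, with means of 7.07 ± 0.27 and 6.96 ± 0.35 (SD, n = 3). The difference of -0.11 had a 95% interval of -0.66 to 0.44 (limma adjusted p = 1.00), which leaves room for a change in either direction. P2rx4 and P2rx7 are neighbours on chromosome 5.

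The ectonucleotidase Entpd1, which clears ATP and ADP from the cell surface, was at 6.27, 5.41 and 6.24 in the controls and at 5.10, 5.43 and 5.91 after LPS. Control replicate 2 lay among the LPS values, and the other controls lay above all of them. The difference was -0.49 (SE 0.31, 95% interval -1.22 to 0.24, limma adjusted p = 0.95). Without control replicate 2 and LPS replicate 3 it was -0.99 (SE 0.19, 95% interval -1.46 to -0.51, limma adjusted p = 0.13), or 0.504 times the control level.

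**Figure D2:**
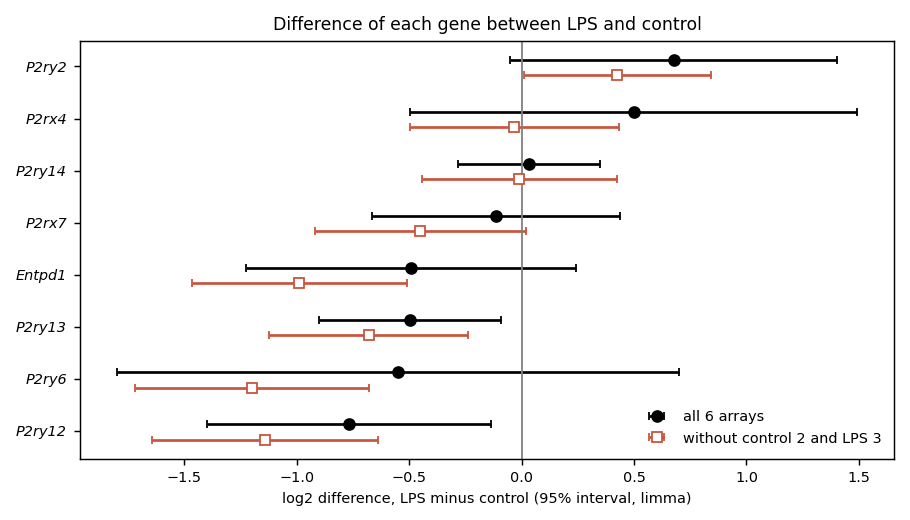
Log2 difference (LPS minus control, horizontal axis) of each measured gene with its 95% interval from limma, on all 6 arrays (black circles) and without control replicate 2 and LPS replicate 3 (open red squares). P2ry6 moves from -0.55 to -1.20 and Entpd1 from -0.49 to -0.99 when these arrays are left out, while P2rx4 moves from 0.50 to -0.03.

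Across the 8 genes, 0 passed the limma threshold in either direction, where 0.193% of all rows were called higher and 0% lower. At an unadjusted limma p under 0.05, 2 were lower (P2ry12 and P2ry13) and 0 higher, where 1.4% of all rows were lower and 4.98% higher. Groups were apart for 2 genes with lower and 1 with higher LPS values, where 3.48% of all rows lay wholly below and 7.74% wholly above. The exact two-sided permutation p was 0.1 for each of these 3 genes, the smallest that 3 against 3 arrays allow. The median difference was -0.30 over the 8 genes and 0.03 over all rows. The count of 2 lower genes became 0 without control replicate 1, control replicate 3, LPS replicate 1 or LPS replicate 2, and 3 without control replicate 2 or LPS replicate 3. In fits with quantile normalization or median centring, each of the 8 differences kept its sign. Quantile normalization turned the 2059 higher and 578 lower rows at an unadjusted limma p under 0.05 into 1514 and 1290, and the count of lower genes among the 8 into 3.

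LPS replicate 3 was the highest of the LPS arrays for all 8 genes. Among those above background this was 7 of 7, against 48.5% of all rows above background. It lay at least 1 log2 unit above the mean of the other LPS replicates for 3 of the 7 genes above background: P2ry6 (by 1.95), P2rx4 (by 1.53) and P2ry2 (by 1.05). The share of all rows above background with such a gap was 8.58%. The same array was 2.12 above the other LPS replicates for P2ry1. LPS replicate 3 was picked from the values of these same genes, so these counts serve as description only. Whether the array or the cells differed was not tested.

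**Figure D3:**
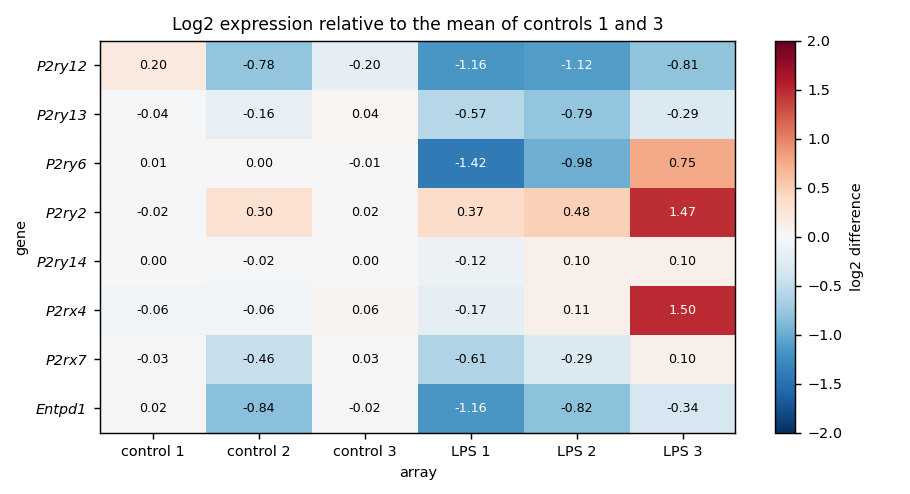
Log2 expression of the 8 measured genes (vertical) on each array (horizontal) relative to the mean of control replicates 1 and 3, with red above and blue below it and the difference printed in each cell. LPS replicates 1 and 2 are below 0 for P2ry12, P2ry13, P2ry6, P2rx7 and Entpd1. Among these genes, control replicate 2 is also below 0 for P2ry12, P2ry13, P2rx7 and Entpd1. For P2rx7 (-0.46) and Entpd1 (-0.84) it is lower than LPS replicate 2. LPS replicate 3 reaches 1.47 for P2ry2 and 1.50 for P2rx4.

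With control replicate 2 and LPS replicate 3 left out, 0 of the 8 genes passed the limma threshold, where 0.368% of rows were called higher and 0.162% lower. At an unadjusted limma p under 0.05, P2ry12, P2ry13, P2ry6 and Entpd1 were lower and P2ry2 was higher, and 5.73% of all rows were lower and 5.47% higher by that measure. P2ry12 had a difference of -1.14 (SE 0.20, 95% interval -1.64 to -0.64, limma adjusted p = 0.11), and P2ry13 one of -0.68 (SE 0.18, limma adjusted p = 0.23). P2rx7 was at -0.45 (95% interval -0.92 to 0.02) and P2ry2 at 0.43 (95% interval 0.01 to 0.84). P2ry1 was called lower in this fit, by -1.48 (SE 0.16, limma adjusted p = 0.038), and it was called in no other fit. These 2 arrays were left out with knowledge of how they stood apart, and 2 arrays per group remain.

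The other genes of nucleotide signalling were taken from lists by role. Of 11 measured further P2Y, P2X and adenosine receptors, 0 passed in limma and 1 was higher at an unadjusted p under 0.05, and 9 of them, Adora3 and the remaining P2rx genes included, had a mean over the 6 arrays within background. Single values of P2rx3 and P2rx5 lay above it, up to 3.46 and 3.25. That 1 was P2ry10b, a relative of the lysophosphatidylserine receptor P2ry10, which was higher on every LPS array, at 5.55 ± 0.11 in the controls and 5.91 ± 0.16 after LPS (SD, n = 3; limma adjusted p = 0.78). Of all rows, 4.98% were higher at an unadjusted limma p under 0.05. Of 13 measured enzymes that act on nucleotides and adenosine, 0 passed in either direction and 0 reached an unadjusted limma p under 0.05. The brightest were the cytosolic nucleotidase Nt5c2, with a difference of -0.14 (95% interval -0.83 to 0.56), and the intracellular ectonucleotidase relative Entpd7, with 0.18 (95% interval -0.43 to 0.80). Without control replicate 2 and LPS replicate 3, 2 enzymes were lower at an unadjusted limma p under 0.05, Nt5c2 (-0.43, limma adjusted p = 0.43) and, named with its value known, Entpd6 (-0.58, limma adjusted p = 0.38). In that fit 5.73% of all rows were lower. Nt5e (CD73), which makes adenosine from AMP at the cell surface, lay within background at 2.13 ± 0.11 and 1.99 ± 0.09.

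Of 14 genes of nucleoside transport and ATP release, 0 passed in limma and 1 was higher at an unadjusted p under 0.05. Over all rows, 4.98% were higher and 1.4% lower by that p on all arrays. The ATP release channel Panx1 was at 5.09, 5.35 and 4.69 in the controls and at 5.54, 5.91 and 7.14 after LPS. Its groups were apart, with LPS replicate 3 once more the furthest. The difference was 1.15 (SE 0.42, 95% interval 0.15 to 2.15, limma adjusted p = 0.68), or 2.22 times the control level, and 0.83 (SE 0.23, limma adjusted p = 0.25) without control replicate 2 and LPS replicate 3. In that fit, 1 of the 14 genes was higher and 2 were lower at an unadjusted limma p under 0.05. The lower genes, named with their values known, were Slc29a3 (-1.04, limma adjusted p = 0.11) and Slc17a9 (-0.58, limma adjusted p = 0.38). Of all rows, 5.47% were higher and 5.73% lower in that fit. Of 22 measured genes that couple P2Y and adenosine receptors to their effectors, 0 passed in limma on all arrays, and at an unadjusted p under 0.05, 2 were higher and 1 was lower. The cyclic AMP phosphodiesterase Pde4b was at 2.83 ± 0.10 in the controls, within background, and at 4.14 ± 0.66 after LPS (SD, n = 3), a difference of 1.31 (SE 0.32, limma adjusted p = 0.37). Rgs2, which shortens signalling by Gq-coupled receptors, went from 8.85 ± 0.82 to 7.58 ± 0.16 (SD, n = 3), a difference of -1.27 (SE 0.39, limma adjusted p = 0.54). Control replicate 2, at 7.91, was the lowest control for Rgs2. Without control replicate 2 and LPS replicate 3, 2 coupling genes were higher and 6 lower at an unadjusted limma p under 0.05. The shares of all rows were 5.47% higher and 5.73% lower. Of the coupling genes, Pde4b was called higher by 1.70 (limma adjusted p = 0.038) and Rgs2 lower by -1.80 (limma adjusted p = 0.029). Pde4b also passed without LPS replicate 3 alone (limma adjusted p = 0.044), and Rgs2 without control replicate 2 alone (limma adjusted p = 0.034). In each case the array left out was the one of its group nearest the other group. The arrays were left out with knowledge of how they stood apart, so these calls serve as description only.

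Of 14 genes linked to P2rx4 and P2rx7 signalling and its outputs, 2 rose and 12 did not pass, where the background was 0.193% of rows higher. These were the interleukin 1 cytokines, whose proteins are released on P2rx7 activation. RNA was measured here and not release, and whether P2X activity bears on it was not tested. Il1a rose by 6.15 (SE 0.24, limma adjusted p = 0.00098) and Il1b by 5.43 (SE 0.39, limma adjusted p = 0.0073). Il1a went from 3.23 ± 0.45 to 9.38 ± 0.11 and Il1b from 3.63 ± 0.77 to 9.06 ± 0.32 (SD, n = 3). Control replicate 2 lay within background for both (2.75 each), so the sizes of these rises rest in part on background signal. Il1b did not pass when control replicate 1 or either of the first 2 LPS replicates was left out (limma adjusted p between 0.055 and 0.082). Nor did Il1b pass in the fit with the replicate number as a block (limma adjusted p = 0.14). A further 5 genes of this list had an unadjusted limma p under 0.05 and were higher on every LPS array. Of all rows, 4.98% were higher at that p and 7.74% lay wholly above. Of these 5 genes, Pstpip2, an F-BAR domain adaptor protein, and the inflammasome sensor Nlrp3 are named with their values known. Pstpip2 went from 4.98 ± 0.64 to 7.26 ± 0.17 (SD, n = 3), a difference of 2.28 (SE 0.32, limma adjusted p = 0.085). It was called without control replicate 2 and LPS replicate 3 (2.03, limma adjusted p = 0.035), a fit that serves as description only. Nlrp3 was at 4.89, 4.94 and 4.25 in the controls and at 6.04, 6.16 and 6.33 after LPS (difference 1.49, SE 0.22, limma adjusted p = 0.10). Nlrp3 passed where only rows with exactly 1 gene symbol were tested (limma adjusted p = 0.035), and not without the 2 arrays (limma adjusted p = 0.097). Pycard, also named with its value known, was the 1 gene of the list lower on every LPS array, where 3.48% of all rows were. It went from 3.39 ± 0.13 to 3.20 ± 0.03 (SD, n = 3; limma adjusted p = 0.98), close to the background guide.

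**Figure D4:**
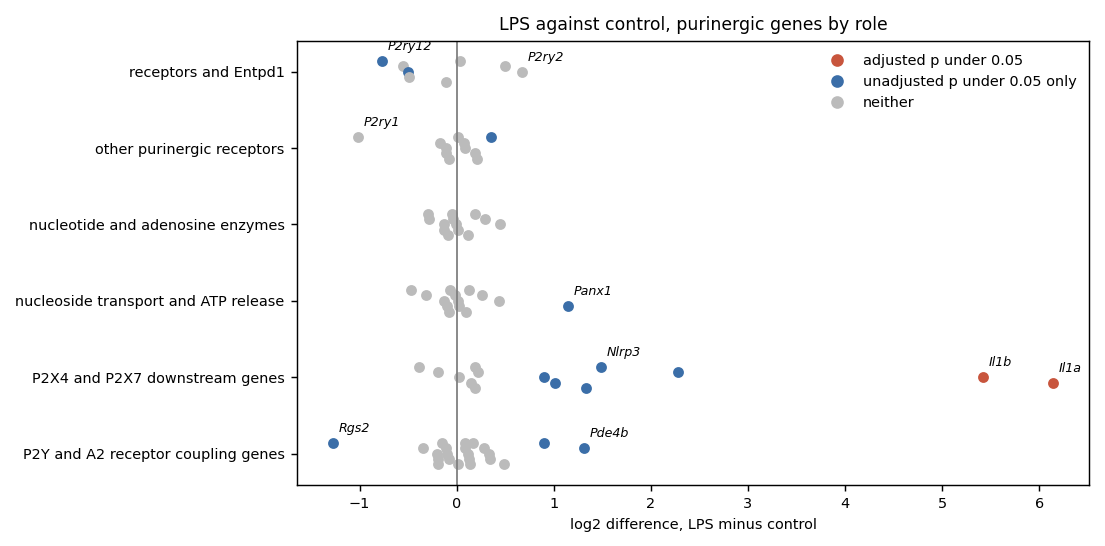
Log2 difference between LPS and control (horizontal axis) for each measured gene, grouped by role (vertical axis). Red marks an adjusted limma p under 0.05, blue an unadjusted p under 0.05 only and grey neither. The called genes are Il1a and Il1b, and the 8 genes of the top row lie between -0.77 and 0.68.

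Marker genes of the cells themselves gave the following values beside these. Of 11 measured microglia and macrophage markers 0 passed in limma and 2 were higher at an unadjusted p under 0.05, with a median difference of -0.11 over the list. The surface marker Adgre1 (1.25, SE 0.27, limma adjusted p = 0.29) and the phosphatase Ptprc (0.41, SE 0.13, limma adjusted p = 0.59) were higher on every LPS array. Of 9 homeostatic microglia markers 0 passed in limma, and 2 were lower on every LPS array and at an unadjusted p under 0.05: the Fc receptor-like gene Fcrls (-0.65, SE 0.23, limma adjusted p = 0.65) and the G protein-coupled receptor Gpr34 (-0.63, SE 0.25, limma adjusted p = 0.76). The mean of Gpr34 over the 6 arrays (2.54) and the LPS mean of Fcrls (2.79) lay within background, so the sizes of these differences rest on background signal. By the same measures 1.4% of all rows were lower and 4.98% higher at an unadjusted p, and 3.48% lay wholly below and 7.74% wholly above. Without control replicate 2 and LPS replicate 3, 1 macrophage marker was higher and 4 were lower at an unadjusted limma p under 0.05, with a median of -0.30, and 3 homeostatic markers were lower, where 5.73% of rows were lower. None of these was called in that fit. The largest, named with their values known, were the Fc receptor Fcgr3 (-1.50, limma adjusted p = 0.059) and the phagocytic receptor Trem2 (-1.22, limma adjusted p = 0.060). As these are bulk measurements, fewer cells that carry a transcript and less of it per cell cannot be told apart.

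Profiles over the 6 arrays, each centred on its own mean, were set against that of P2ry12. P2ry12 had the largest difference of the 8 genes on all 6 arrays, but not in several fits with arrays omitted. That of P2ry6 was larger when control replicate 1, LPS replicate 3 or both arrays that stood apart were omitted. P2ry2 had a larger difference in size than P2ry12 once control replicate 1 was dropped (0.615 against -0.536). The same held after dropping LPS replicate 1 (0.877 against -0.703), where P2rx4 was at 0.824. It also held for P2ry2 after dropping LPS replicate 2 (0.824 against -0.720). Among 10890 other genes above background, the smallest Euclidean distances were those of Ffar4 (0.304), Rassf5 (0.306) and Serpinf1 (0.321). Ffar4 was at 5.06, 4.01 and 4.55 in the controls and at 3.75, 4.01 and 4.13 after LPS. Rassf5 went from a mean of 4.78 to 4.13 and Serpinf1 from 5.05 to 4.43, and none of the 3 passed in limma (adjusted p between 0.66 and 0.88).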

How the data were processed

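Whole-transcript Affymetrix arrays measured RNA of 3 control and 3 LPS samples. The authors deposited 1 table of log2 expression values per transcript cluster, and the submitters' processing notes name Affymetrix Expression Console. The version, background correction, normalization and summarization are not given in the sources used here, and the log2 scale was read from the values (0.844 to 12.0). Differences from low signals may be biased by the background correction. The number of arrays limits the precision.

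The table held 41345 rows, of which 23521 carried 1 gene symbol in the platform annotation, 1814 several and 16010 none. Genes were named only from rows with 1 symbol, with the brightest row taken per gene. LPS was compared with control in R 4.3.3 by lmFit and eBayes of limma 3.58.1 on the deposited log2 values, without filter, over all rows, with Benjamini-Hochberg adjustment and a threshold of 0.05. The fit was also run on simulated data with independent noise in each row and no shift of whole arrays. That run does not cover arrays that stand apart. Alternatives covered normalization, dim rows, the rows tested, the variance model, array weights, a replicate block and arrays left out.

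The genes, lists and alternatives were chosen with earlier results of these data known. All 10 genes were named whatever their values. From each other list up to 4 called genes were named, or else up to 3 with an unadjusted p under 0.05 and groups apart, or else the 2 brightest. Of the 88 entries of the 6 lists of pathway genes and chromosomal neighbours, 78 had a row.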

Additional observations from a re-analysis of the deposited data

How the results depend on the processing

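None of the 8 genes was called on all arrays or under any of the 16 alternatives. Of 127 differences of these genes under the alternatives, 121 kept their sign, and the 6 others were close to 0. In the fit that omitted control replicate 2 together with LPS replicate 3, P2ry14 was at -0.010 and P2rx4 at -0.032. With 1 array left out, P2ry14 ran from -0.0050 (without LPS replicate 3) to 0.10, P2rx4 from -0.011 (without LPS replicate 3) to 0.82 and P2rx7 from -0.30 to 0.057 (without LPS replicate 1). The cause was not tested.

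The count of genes lower at an unadjusted p under 0.05, 2 on all arrays, was 1 without dim rows, 4 without both arrays and between 0 and 3 with 1 array left out. The count higher was 0 on all arrays, 1 with array weights, 1 without both arrays and between 0 and 1 with 1 array left out. Called genes of the other pathway lists, 2 on all arrays, numbered 4 with named rows only, 4 with 1 row per gene, 6 without both arrays and between 1 and 4 with 1 array left out.

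The fit with the replicate number as a block called 1 of these pathway genes (Il1a, but not Il1b, limma adjusted p = 0.14), and 7 of all rows against 80 without it. Deviations from group means correlated at 0.07, -0.26 and -0.22 for numbers 1 to 3. The highest correlation of any control with any LPS array, 0.27, was that of control replicate 2 with LPS replicate 3. These arrays stood apart from their groups. With deviations taken within groups of only 3 arrays, the correlations cannot show whether the numbers pair the arrays. Leaving out 1 array at a time moved P2ry12 between -1.03 and -0.54, P2ry6 between -1.20 and -0.11 and Entpd1 between -0.77 and -0.30.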
